A study of Mus musculus with 4 samples.

Results

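miR-190b is a microRNA (miRNA) of retinal libraries that stood out by its decrease when both copies of the transcription factor gene Ptf1a were lost. The values below set both of its arms beside its paralog miR-190a. The rule named 4 mature arms, mmu-miR-190b-5p, mmu-miR-190b-3p, mmu-miR-190a-5p and mmu-miR-190a-3p (mmu for mouse, left out below). Of these, 3 had a row among the 1326 miRNAs counted, and all 3 passed the filter of 10 or more counts in at least 2 libraries that left 584 tested miRNAs. miR-190a-3p was not analysed here. miR-190b was chosen because both of its arms were more than 10-fold lower in Ptf1a-/- in this very contrast, so its decrease is described without a test. miR-190a was chosen as the paralog, not by its own values.

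Small RNA came from whole mouse retinas at embryonic day E18.5, when progenitors still divide beside newly formed neurons. The embryos were Ptf1a-/- (2 libraries) or Ptf1a+/- (2 libraries), so the controls also carried 1 inactive copy and no wild type retina was analysed here. Ptf1a encodes a basic helix-loop-helix factor that progenitors need to make amacrine and horizontal cells. The labels state neither how the allele was inactivated nor whether each library is a separate animal. The p-values therefore cover only the variation seen among 4 libraries, part of which may be technical. In whole tissue, fewer cells of a type and less RNA per cell cannot be told apart.

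A miRNA gene is transcribed as a hairpin whose sides, the 5p and 3p arms, are cut out as short RNAs. One arm usually dominates as the guide strand, and bases 2 to 8 of it, the seed, pair with target messenger RNAs. Paralogs with the same seed can bind many of the same target sites, even when they come from different chromosomes and are transcribed separately. In rodent hippocampal neurons miR-190 has been linked to repression of Neurod1, a neuronal differentiation gene.

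The mature arms are shown first because the comparison turns on what the paralogs share and where they part. The sequences are from RefSeq (GRCm38.p6), 5′ to 3′, with the seed in capitals.
miR-190b-5p: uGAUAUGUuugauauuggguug
miR-190a-5p: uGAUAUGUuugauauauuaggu
miR-190b-3p: aCUGAAUGucaagcauacucuca
miR-190a-3p: aCUAUAUAucaagcauauuccu
The 5p arms were identical over their first 15 bases, seed included, and differed at all 7 positions after that (U16A, G17U, G18U, G19A, U20G, U21G and G22U, counted from 1 at the 5′ end, with the miR-190b base first). The seed of the 5p arms occurred in 2 mature miRNAs of the RefSeq table, these 2 and no other. Position by position without gaps, the 3p arms differed at 6 of 22 positions. Of those, G4A, A5U and G8A fell within bases 2 to 8, so the 3p arms do not share a seed. Each 3p seed occurred in 1 mature miRNA of the table.

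The precursors lie on different chromosomes. Mir190b is on the plus strand of chr3:90070020-90070099 (GRCm38) and lay inside no other gene of the GENCODE M21 annotation. Its nearest annotated genes, both on the same strand, were the protein-coding gene 4933434E20Rik, which ends 1.67 kb before it, and Tpm3, a tropomyosin gene that starts 2.55 kb after it. Mir190a is on the minus strand of chr9:67236660-67236726. It lay inside Tln2, the gene for talin 2 (a linker between integrins and the actin cytoskeleton), on the same strand. 6 Tln2 transcripts spanned it and no Tln2 exon overlapped it, so it was intronic in all of them. The hairpins are printed with both mature arms in capitals, to show where the arms lie.
Mir190b: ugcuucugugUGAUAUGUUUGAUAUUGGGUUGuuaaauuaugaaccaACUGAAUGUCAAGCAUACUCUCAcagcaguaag
Mir190a: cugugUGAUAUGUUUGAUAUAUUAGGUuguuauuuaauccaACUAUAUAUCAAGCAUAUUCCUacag
The hairpins, 80 and 67 bases long, were identical at 56 of 82 columns of a global alignment (68.3%).

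The libraries held between 3647145 and 4385834 listed counts, and 3 counts corresponded to 0.638 to 0.924 CPM. Levels below are CPM (counts scaled to a common library total) after scaling by TMM, a library factor that centres most miRNAs on no change. The factors were 1.06 and 0.829 in Ptf1a-/- and 1.06 and 1.07 in Ptf1a+/-. The Ptf1a-/- libraries differed more from each other (biological coefficient of variation 22.6%) than the Ptf1a+/- libraries did (1.39%). Among markers of retina and neurons, all 5 (miR-183-5p, miR-182-5p, miR-96-5p, miR-124-3p and miR-9-5p) were detected in every library. Their summed level was 363534 to 517960 CPM in Ptf1a-/- and 337102 to 340335 CPM in Ptf1a+/-, most of it miR-9-5p and miR-182-5p. The log2 fold changes (Ptf1a-/- over Ptf1a+/-) were 0.48 ± 0.21 for miR-183-5p, 0.38 ± 0.20 for miR-9-5p and 0.37 ± 0.27 for miR-182-5p (SE). Those of miR-124-3p and miR-96-5p were -0.15 ± 0.13 and -0.34 ± 0.15. None of the 5 passed the edgeR test (adjusted p under 0.05).

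miR-190b-5p, the dominant arm, was more than 10-fold lower in both Ptf1a-/- libraries. It had 30 and 23 counts in Ptf1a-/- replicates 1 and 2, against 429 and 466 counts in Ptf1a+/- replicates 1 and 2. On the TMM scale these were 7.74 and 7.08 CPM in Ptf1a-/-, against 110.8 and 99.1 CPM in Ptf1a+/-. The genotypes were far apart: the lowest Ptf1a+/- library was 12.8-fold above the highest Ptf1a-/- library, while libraries of 1 genotype differed by 1.09-fold (Ptf1a-/-) and 1.12-fold (Ptf1a+/-). Means were 7.41 ± 0.468 CPM in Ptf1a-/- and 105 ± 8.26 CPM in Ptf1a+/- (SD, n = 2 each), so the Ptf1a-/- retinas kept 7.06% of the Ptf1a+/- level. The fitted log2 fold change was -3.81 ± 0.20 (SE), a 14.0-fold decrease. From the summed counts alone, 53 in Ptf1a-/- and 895 in Ptf1a+/-, the ratio was 0.0713 with an exact 95% interval of 0.0530 to 0.0941, which covers counting error only. By abundance the arm ranked 435 in both Ptf1a-/- libraries, of 1015 and 970 miRNAs with a count, against 189 of 1019 and 197 of 1070 in Ptf1a+/-.

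miR-190b-3p, the minor arm, had 3 and 1 counts in Ptf1a-/-, against 25 and 31 counts in Ptf1a+/-. Its levels were 0.774 and 0.308 CPM in Ptf1a-/-, at or under the level of 3 counts, against 6.46 and 6.60 CPM in Ptf1a+/-. The genotypes did not overlap, which in this direction held for 31.5% of the 584 tested miRNAs. This arm passed the filter on low counts only through the Ptf1a+/- libraries. The fitted log2 fold change was -3.47 ± 0.45 (SE), an 11.1-fold decrease, and the ratio of the summed counts, 4 in Ptf1a-/- and 56 in Ptf1a+/-, was 0.0860 (exact 95% interval 0.0226 to 0.233, counting error only). The size of this change rests on very few reads. Without Ptf1a-/- replicate 1 the log2 fold change was -4.27, and without Ptf1a-/- replicate 2 it was -3.01, which no longer reaches the 10-fold limit of the rule (-3.32).

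**Figure D1:**
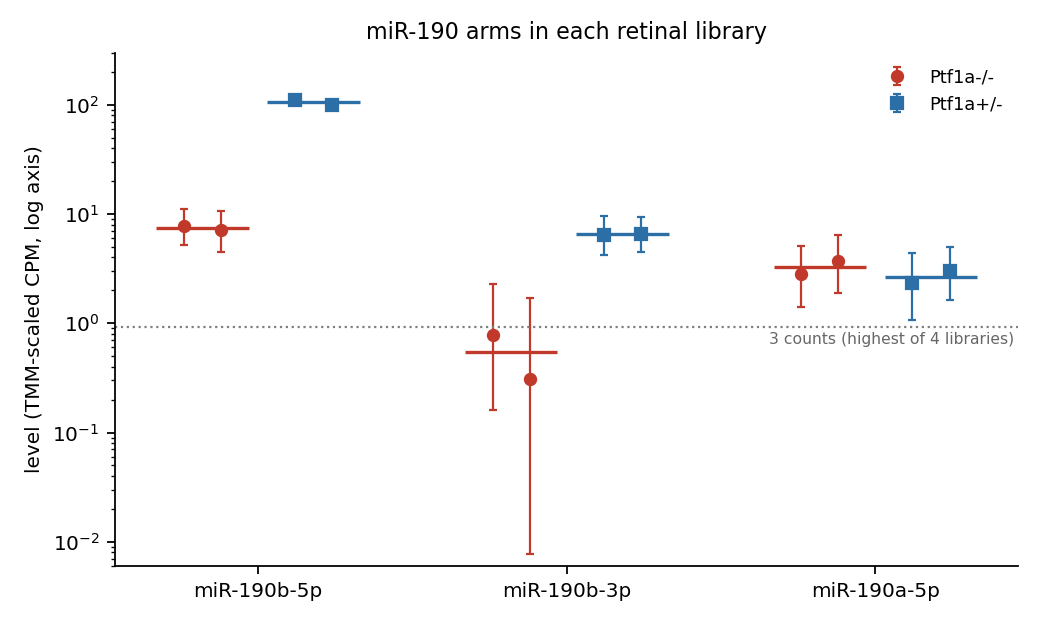
Level of the miR-190 arms in each library (TMM-scaled CPM, log axis), Ptf1a-/- as red circles left of Ptf1a+/- as blue squares. Points are libraries with their exact 95% counting intervals and short lines are means of 2 libraries. The dotted line is the level of 3 counts in the library where it is highest (0.924 CPM). Both miR-190b arms, chosen by this contrast, separate the genotypes and miR-190a-5p does not. Of all 584 tested miRNAs, 31.5% were likewise lower in both Ptf1a-/- libraries than in both Ptf1a+/- libraries.

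miR-190a-5p, whose 5′ sequence and seed equal those of miR-190b-5p, did not show this decrease. It had 11 and 12 counts in Ptf1a-/-, against 9 and 14 counts in Ptf1a+/-. The levels were 2.84 and 3.70 CPM in Ptf1a-/- and 2.32 and 2.98 CPM in Ptf1a+/-, and the genotypes overlapped. Means were 3.27 ± 0.605 CPM in Ptf1a-/- and 2.65 ± 0.462 CPM in Ptf1a+/- (SD, n = 2 each). The log2 fold change was 0.27 ± 0.35 (SE), with a 95% interval from -0.60 to 1.14 and an adjusted p of 0.712 (edgeR quasi-likelihood test, Benjamini-Hochberg over 584 miRNAs). In the same test 3.6% of the 584 miRNAs were lower and 6.16% higher in Ptf1a-/-. The interval allows anything from 0.659 to 2.2 times the Ptf1a+/- level, so a moderate change could not be detected at this depth. The exact 95% interval from the summed counts, 23 in each genotype, was 0.645 to 2.24 times, which covers counting error only. The edgeR interval was no wider than that, so it hardly covers variation between libraries. With DESeq2 the log2 fold change was 0.31 ± 0.93 (SE). The edgeR interval does not reach the 10-fold decrease by which miR-190b was chosen. With 46 counts over the 4 libraries miR-190a-5p was among the scarcest tested miRNAs, only 29 of which had a lower mean count.

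Because the paralogs carry the same seed, their counts were also added within each library. The summed level was 10.6 and 10.8 CPM in Ptf1a-/-, against 113 and 102 CPM in Ptf1a+/-. The mean sum was 10.7 ± 0.137 CPM in Ptf1a-/- and 108 ± 7.79 CPM in Ptf1a+/- (SD, n = 2 each), so the summed level in Ptf1a-/- was 9.92% of that in Ptf1a+/-. Nearly all of the Ptf1a+/- sum was miR-190b-5p. Its share was 73.2 and 65.7% in Ptf1a-/-, against 97.9 and 97.1% in Ptf1a+/-. Over the summed counts of a genotype the share was 69.7% in Ptf1a-/- (53 of 76, Clopper-Pearson 95% interval 58.1 to 79.8%) and 97.5% in Ptf1a+/- (895 of 918, 96.3 to 98.4%). The ratio of miR-190b-5p to miR-190a-5p was 2.73 and 1.92 in Ptf1a-/-, against 47.7 and 33.3 in Ptf1a+/-. A ratio within a library does not depend on library scaling, but ligation and PCR favour some sequences, so the ratio itself is not a ratio of molecules. Even in Ptf1a-/- there were more miR-190b-5p than miR-190a-5p counts in both libraries.

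**Figure D2:**
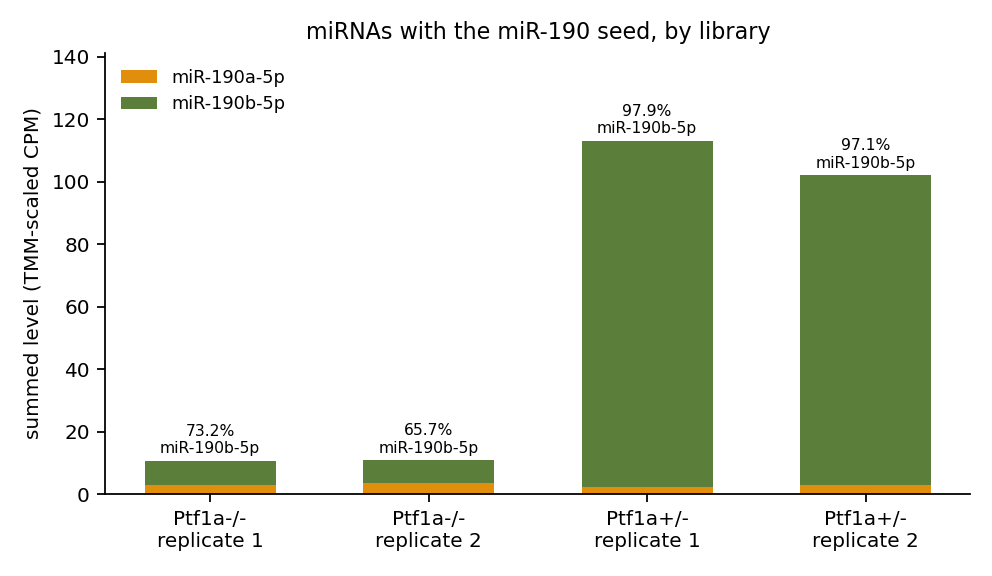
Summed level of the 2 miRNAs with the shared miR-190 seed in each library (TMM-scaled CPM), miR-190a-5p in orange below and miR-190b-5p in green above, with the share of miR-190b-5p over each bar. The Ptf1a-/- bars stand at 10.6 and 10.8 CPM and the Ptf1a+/- bars at 113 and 102 CPM, while the orange part is of similar height in all 4.

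That both arms of miR-190b were lower restates the choice of this miRNA, and the 3p arm passed the filter only through its Ptf1a+/- counts, so the arm values below are a description. The 5p arm outnumbered the 3p arm 10.0 and 23.0 to 1 in the Ptf1a-/- libraries, against 17.2 and 15.0 to 1 in the Ptf1a+/- libraries, so the Ptf1a+/- values lay between those of Ptf1a-/-. Over the summed counts of a genotype, the 3p arm made up 7.02% of miR-190b in Ptf1a-/- (4 of 57, Clopper-Pearson 95% interval 1.95 to 17.0%) and 5.89% in Ptf1a+/- (56 of 951, 4.48 to 7.58%). A difference in arm use between the genotypes was not detectable at this depth. The difference in log2 ratio was -0.43 with 0.5 added to each count, about as large as the spread within the genotypes (0.433). With 2 libraries a genotype, the smallest p of an exact permutation test would be 0.333, so none was run.

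Across the 152 miRNA names with both arms tested, the log2 fold changes of the arms differed by a median of 0.316 in absolute size. Arms were paired by name, and some names come from more than 1 precursor, such as miR-9. Some share reads, such as the 3p arms of miR-199a and miR-199b, so the 152 are not all independent. Those of miR-190b differed by 0.344, which ranked 72 of 152. Both arms were more than 10-fold lower in 1 of the 152, which is miR-190b itself, chosen by that property. Both were more than 2-fold lower in 3 of them. The others were miR-1934 (-2.71 for 5p and -1.44 for 3p) and miR-216a (-1.27 and -1.18), which is clustered with miR-216b. The 5p arm of miR-1934 had 3 and 2 counts in Ptf1a-/-, so its value rests on very few reads. miR-673, from the imprinted Dlk1-Dio3 locus, had the widest difference between arms, with -2.87 for 5p and -0.72 for 3p. These 3 names were chosen after their values were seen.

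**Figure D3:**
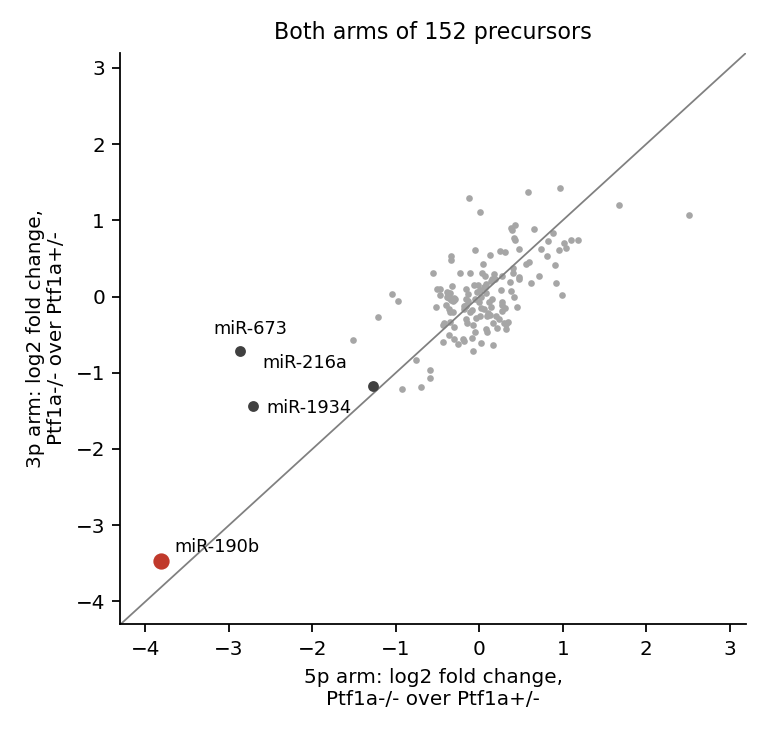
Log2 fold change (Ptf1a-/- over Ptf1a+/-) of the 3p arm (vertical axis) against that of the 5p arm (horizontal axis), with the line of equal change. Each of the 152 points is 1 miRNA name with both arms tested, called a precursor in the title. miR-190b (red) lies near the line at -3.81 and -3.47, whereas miR-673 and miR-1934 lie well above it.

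Against all tested miRNAs, 4 of 584 (0.685%) had a fitted decrease of more than 10-fold, 2 of them the arms of miR-190b. The contrast was used by the rule, so nothing is read from this share. The others inside the limit were miR-10a-5p, a miRNA of the Hox clusters, and miR-200b-3p, an epithelial miRNA. Their log2 fold changes were -5.08 ± 0.68 and -3.47 ± 0.49 (SE). Just outside the limit were miR-196a-5p (also from the Hox clusters) at -3.12 ± 0.87, miR-673-5p at -2.87 ± 0.30 and miR-1934-5p at -2.71 ± 0.41. Among these 7, miR-190b-5p had by far the most counts. The highest count of any other was 107, for miR-673-5p in Ptf1a+/- replicate 2. In Ptf1a-/-, miR-10a-5p and miR-196a-5p each had 0 and 2 counts, miR-200b-3p 1 and 3, and miR-1934-5p 3 and 2. Like miR-190b-3p, these passed the filter on low counts only through the Ptf1a+/- libraries, so the size of their changes rests on very few reads. Both Ptf1a-/- libraries lay below both Ptf1a+/- libraries for 31.5% of the 584 miRNAs, so the absence of overlap is itself common here.

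**Figure D4:**
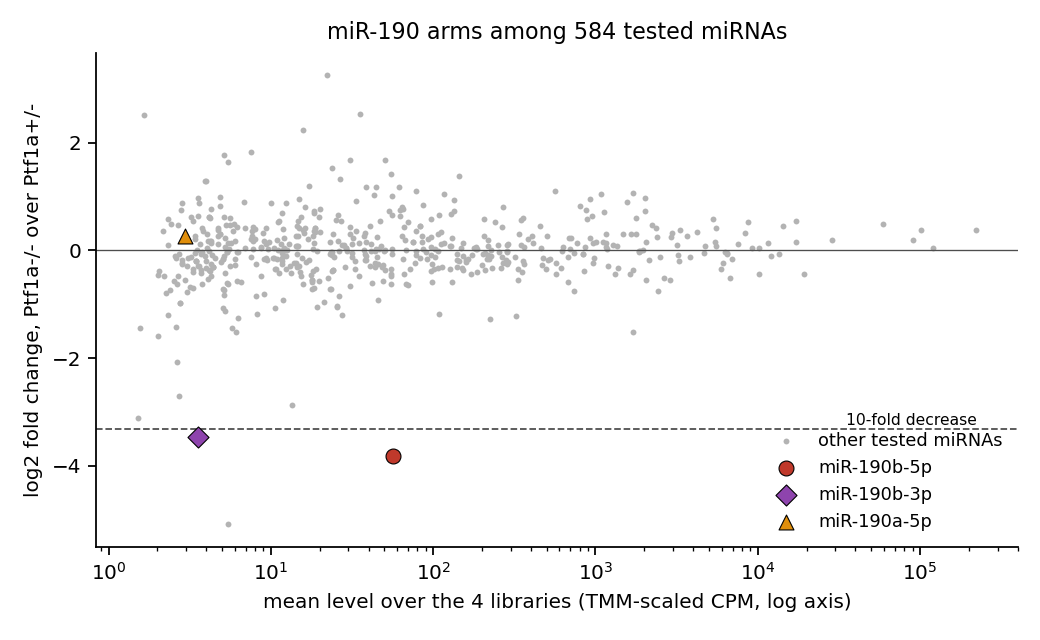
Log2 fold change (Ptf1a-/- over Ptf1a+/-) against the mean level over 4 libraries (TMM-scaled CPM, log axis) for 584 tested miRNAs, with the miR-190 arms marked and the 10-fold decrease as a dashed line. miR-190b-5p lies at -3.81 and well to the right of the other points under the line, and miR-190a-5p lies at 0.27 among the scarce miRNAs.

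The gap between the miR-190 paralogs was wide beside that of other lettered pairs. Pairs were taken only where both names were in the RefSeq table and began with miR, so the let-7 family was left out. There were 27 such pairs named a and b with the same arm and the same bases 2 to 8. Of these, 20 had both members tested. The paralogs of a pair differed in log2 fold change by a median of 0.114 in absolute size. For miR-190 the difference (b minus a) was -4.08, a description that follows from how miR-190b was chosen. No other of these 20 pairs was further apart than 1. The next of the 20 were miR-29a/b-3p, with 0.43 ± 0.18 for a and -0.25 ± 0.34 for b (SE). miR-146a/b-5p followed, with -0.47 ± 0.15 and 0.07 ± 0.15, and then miR-99a/b-5p, with -0.23 ± 0.12 and 0.15 ± 0.15 (SE). Not among the 20, and so not ranked, were miR-199a-5p at -1.05 ± 0.22 and miR-199b-5p at -0.14 ± 0.40 (SE). These lie further apart than the miR-29 pair. Some pairs share reads: miR-199a-3p and miR-199b-3p had the same values in every library, which brings their difference to 0.

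**Figure D5:**
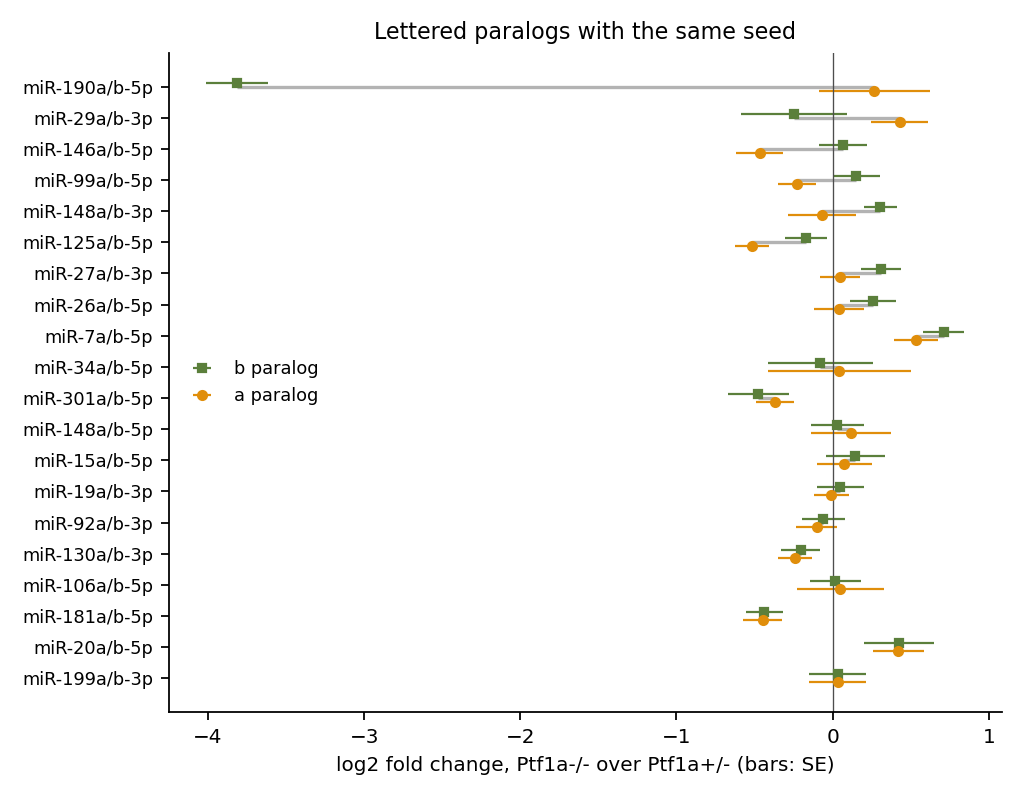
Log2 fold change (Ptf1a-/- over Ptf1a+/-) of both members of 20 lettered miRNA pairs with the same seed, b paralogs as green squares and a paralogs as orange circles, with SE from the edgeR fit. Of these 20, only the miR-190 pair, at -3.81 and 0.27, is further apart than 1.

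The reads of the paralogs differ in their 3′ parts. RNA of 18 to 30 nt had been cut from the gel, so an insert that starts at the first base carries at least 3 bases beyond the 15 shared ones. All values of the 3 arms were whole numbers in every library, although 5.73 to 7.84% of a library's values were not. How ambiguous reads were counted is not stated in the labels or file headers. The most frequent read of each arm is shown in DNA letters with the seed in capitals, as the deposited table lists it. That of miR-190b-5p was the same in all 4 libraries and equal to the reference form of 22 bases.
miR-190b-5p, all libraries: tGATATGTttgatattgggttg
miR-190a-5p, both Ptf1a-/- and Ptf1a+/- replicate 2: tGATATGTttgatatattaggttgt
miR-190a-5p, Ptf1a+/- replicate 1: tGATATGTttgatatattagg
An unvarying most frequent read was common, since 408 of 581 tested miRNAs with one in every library (70.2%) had the same one throughout. In 3 of 4 libraries that of miR-190a-5p was 25 bases long, with 3 bases beyond the reference 3′ end, and the whole read matched the Mir190a hairpin. Such an extension of 3 or more bases in at least 3 libraries was seen in 24 tested miRNAs. The form in Ptf1a+/- replicate 1 was 21 bases long, from a total of 9 counts.

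miR-190b-3p kept 1 form in 3 of 4 libraries, which ends 1 base before the RefSeq end. In Ptf1a-/- replicate 1, with 3 counts in all, another form led.
miR-190b-3p, Ptf1a-/- replicate 2 and both Ptf1a+/-: aCTGAATGtcaagcatactctc
miR-190b-3p, Ptf1a-/- replicate 1: AactgaatgtcaagcatactcA
In the last line the capitals mark an added first base, which matches the hairpin, and the substitution T21A (counted from 1 at the reference 5′ end, reference base first). The added base moves the seed by 1 position. With so few counts this form cannot be set against the others.

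No tested miRNA from the surroundings of Mir190b passed the test. Of 17 mature miRNAs placed within 5 Mb of it in the RefSeq table, a window chosen after the values were seen, 5 were tested and 0 passed with edgeR, where 9.76% of all 584 miRNAs passed in either direction. At an unadjusted p under 0.05 there were 0 of the 5 with edgeR, 1 with DESeq2 and with limma, and 2 with library size as the only scaling. With DESeq2 0 of the 5 passed, against 10.1% of all 584. Without Ptf1a-/- replicate 1, 3 of the 5 passed, as did 45% of all 584, and without Ptf1a-/- replicate 2, 4 passed, as did 46.9%. Only the closely matching Ptf1a+/- pair sets the spread in those fits. Closest was miR-92b, 843 kb away, whose 3p arm had 913 and 723 CPM in Ptf1a-/- and 858 and 847 CPM in Ptf1a+/-. Its log2 fold change was -0.06 ± 0.14 (SE, adjusted p = 0.826, edgeR), and that of its 5p arm was -0.32 ± 0.14 (adjusted p = 0.222). The others, miR-9-5p, miR-9-3p and miR-9b-5p, come from more than 1 locus each and had log2 fold changes of 0.38, 0.07 and 0.49. Of 7 mature miRNAs within 5 Mb of Mir190a none was tested.

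Profiles over the 4 libraries were compared by the Euclidean distance between log2 CPM values centred on each miRNA's mean. The 5 of 583 nearest to miR-190b-5p were miR-10a-5p (distance 0.948), miR-673-5p (1.03), its own partner miR-190b-3p (1.03), miR-200b-3p (1.23) and miR-1934-5p (1.61). With 2 genotypes and 4 libraries this is mainly a list of the largest decreases. Except for miR-673-5p, each of the 5 had 3 or fewer counts in both Ptf1a-/- libraries. miR-190a-5p ranked 430 of 583 in distance from its paralog. The nearest to miR-190a-5p itself were miR-1191a, miR-704, let-7f-1-3p, miR-126a-5p and miR-24-2-5p, all within a distance of 0.170, and all with log2 fold changes between 0.10 and 0.39.

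Markers of other tissue that a dissected retina could hold were read beside the miR-190b change, and their part in it was not tested. Of 18 tested markers in 6 lists 2 passed, both lower in Ptf1a-/- (9.76% of all 584 miRNAs passed in either direction). The first was miR-204-3p, of the pigment epithelium list, with 252 and 289 CPM in Ptf1a-/- and 397 and 391 CPM in Ptf1a+/-. Its log2 fold change was -0.54 ± 0.12 (adjusted p = 0.0436, edgeR). The others of that list did not pass: its far more abundant partner arm miR-204-5p at -0.09 ± 0.11 and miR-211-5p at -0.35 ± 0.29. The second was miR-200b-3p, with 1 and 3 counts in Ptf1a-/- and 25 and 31 counts in Ptf1a+/- (-3.47 ± 0.49, adjusted p = 0.0124, edgeR). It passed the filter on low counts only through the Ptf1a+/- libraries, so nothing is read from its p-value. In its list, lens and surface epithelium, miR-184-3p (-0.44 ± 0.28) and miR-203-3p (0.30 ± 0.14) did not pass. Summed levels of the lens and surface epithelium list (5 of 6 with a row) were 229 to 302 CPM in Ptf1a-/- and 295 to 308 CPM in Ptf1a+/-. Those of the pigment epithelium list (3 of 3) were 3204 to 3566 CPM in Ptf1a-/- and 3690 to 3729 CPM in Ptf1a+/-. Vessel and mural markers (4 of 4) summed to 352 to 587 CPM in Ptf1a-/- and 593 to 614 CPM in Ptf1a+/-, with miR-145a-5p at 0 in at least 1 library. Blood cell markers (4 of 4) summed to 63.8 to 96.4 CPM in Ptf1a-/- and 70.4 to 73.4 CPM in Ptf1a+/-, with miR-451a, miR-144-3p and miR-223-3p at 0 in at least 1 library. Striated muscle markers (3 of 3) summed to 65.1 to 70.2 CPM in Ptf1a-/- and 48.6 to 51.3 CPM in Ptf1a+/-. Abundant members carry these sums: in the vessel list miR-143-3p stood at -1.03 ± 0.25 on the log2 scale without passing (edgeR adjusted p of 0.0637). In the same list miR-126a-3p stood at -0.35 ± 0.24 and miR-126a-5p at 0.31 ± 0.28, also without passing.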

How the data were processed

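Small RNA of 4 mouse retina libraries was counted per mature miRNA by the authors. Per the submitters' processing notes, bcl2fastq 2.20.0.422 was used; no label or header names an aligner, a counter or a build. The authors' raw table holds estimated counts, rounded here to whole numbers. Their deposited CPM divide the same counts by 1 total per library, of which 16.3 to 27.9% is not listed per miRNA, more in Ptf1a-/- (22.7 and 27.9%) than in Ptf1a+/- (17.05 and 16.3%). A further deposited table gives the most frequent sequence, written against miRBase22 per the file headers.

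Ptf1a-/- was compared with Ptf1a+/- over 584 miRNAs with edgeR 4.0.16 (R 4.3.3; TMM, quasi-likelihood F test, Benjamini-Hochberg, threshold 0.05), after a check on simulated data. That check gave all libraries the same spread, so it could not show how the test behaves with the unequal spread of these genotypes. limma 3.58.1 and DESeq2 1.42.0 served as alternatives. Members and lists were chosen with earlier results of these data known. Named miRNAs are the arms, the 5 nearest profiles, those next to the 10-fold limit and passing markers. Also named are the 3 widest others of the 20 paralog pairs. Others (miR-216a, miR-199a/b-3p, miR-199a/b-5p, the neighbours of Mir190b, miR-143-3p and further non-passing markers) were chosen after their values were seen. RefSeq matched 1120 of 1326 names. No molecular identifiers are described, so the exact intervals on counts take each read as a separate molecule and cover counting error only. The interval of the miR-190a-5p log2 fold change comes from the edgeR fit, but was no wider than the exact interval on its counts. Replicate numbers were taken from the titles.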

Additional observations from a re-analysis of the deposited data

How the results depend on the processing

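The log2 fold change of miR-190b-5p lay between -3.99 and -3.73 under 12 alternatives, all more than a 10-fold decrease. It moved by more than the spread within genotypes with library size as the only scaling (-3.99) and with limma on log2(deposited CPM + 1) (-3.93). The median log2 fold change of all miRNAs was -0.18 and -0.33 in these, against -0.0031 with TMM. miR-190b-3p had -2.29 with limma, where the pseudocount of 1 exceeds its Ptf1a-/- values, and -4.27 to -3.01 with 1 library left out; 10 of its 12 values passed a 10-fold decrease. miR-190a-5p turned to -0.036 with limma and otherwise lay above 0 (0.10 to 0.47 with 1 library left out), with adjusted p from 0.481 to 0.972 over all alternatives. The summed seed-sharing level had a log2 fold change of -3.33, with -3.52 for library size only, -3.69 on deposited CPM and -3.41 to -3.26 with 1 library left out. The paralog ratio difference was -4.09, from -4.34 to -3.85 with 1 library left out, and that of the arm ratio -0.43, from -0.86 to -0.01.

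Of 584 miRNAs 36 were called higher and 21 lower. Counts of higher and lower calls were 4 and 12 with library size only, 0 and 7 with limma, 12 and 9 without the filter, 0 and 1 with the Ptf1a+/- libraries summed, and from 0 and 1 to 142 and 132 with 1 library left out. The 0 higher calls stood beside 16 higher at an unadjusted p under 0.05 with limma, 35 with the summed pair, and 34 and 32 without Ptf1a+/- replicate 1 and replicate 2; DESeq2 called 42 higher. With the replicate block they were 5 and 7, and miR-190b-5p, miR-190b-3p and miR-190a-5p stood at -3.82, -3.47 and 0.30. Same-numbered libraries hardly deviated together (correlation 0.0503). The Ptf1a+/- libraries barely differed (biological coefficient of variation 1.39%), so this correlation cannot tell whether the numbers pair libraries. Alternatives for miR-190a-3p were not run. Few counts limit miR-190b-3p and miR-190a-5p.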
